A study of Mus musculus with 6 samples.

Results

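The transcripts described here are those of insulin-like growth factor (IGF) and insulin signalling in mouse testis, 10 genes chosen by symbol from a table of 55850 gene rows. They are Igf1, the ligand, the receptor genes Igf1r and Insr, the adaptor genes Irs1 and Irs2, and the binding protein genes Igfbp2, Igfbp3, Igfbp4, Igfbp5 and Igfbp7. All 10 were present once in the table and all 10 had a mean of at least 1 FPKM (fragments or reads scaled to gene length and library size), as did 14238 genes in all. Bulk RNA of whole testis was sequenced in 3 libraries of genotype CKO, the conditional knockout, and 3 of genotype WT, all untreated. By the title of the series, the knockout removes the splicing factor SRSF2 from Sertoli cells, which line the seminiferous tubule and support germ cells. The Cre driver, the floxed part of the gene, the strain, the age and any allele that the WT mice share with the CKO mice are not stated in the labels. Nothing in the labels says that the replicates are different animals, and the p-values below may therefore rest on technical spread alone.

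IGF1 and IGF2 act mainly through the IGF1 receptor, and insulin mainly through the insulin receptor, both of them receptor tyrosine kinases. The activated receptors phosphorylate the adaptor proteins IRS1 and IRS2, which recruit phosphoinositide 3-kinase and so feed the AKT, FoxO and mTOR branches, while other adaptors feed the RAS and MAPK branch. IGF binding proteins hold IGFs outside the cell and limit or prolong their action. In mice, loss of insulin and IGF1 receptors in Sertoli cells is known to lower Sertoli cell number and testis size, and IGF1 is known to act on Leydig cell maturation.

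None of the 10 genes passed the test of CKO against WT testis when p-values were adjusted over all genes (limma, lowest adjusted p = 0.372, for Igfbp4). The share of all tested genes past that threshold was 0.014%, with 1 gene higher (0.00702%) and 1 lower (0.00702%). At an unadjusted p under 0.05, 1 of the 10 genes, Igfbp4, lay below WT, where 12.3% of all tested genes passed in either direction, 4.65% on the higher and 7.68% on the lower side. Igfbp4 was also the 1 member whose CKO and WT libraries did not overlap, a pattern seen in 18.6% of all tested genes, and with CKO lower in 9.92%. Limma voom on read numbers recovered from the table likewise put 0 of the 10 past the adjusted threshold. Of the 10 log2 differences 7 were above 0 and 3 below, against 50.8% above and 49.2% below over all tested genes, with a median of 0.07 against one of 0.005 over all tested genes. The sign followed gene length. Of the 6 members of at least 5000 bases 6 were above 0, where 65.2% of the 5346 tested genes of that length were, and of the 4 shorter members 1 was, where 42.2% of 8892 tested genes were. On the log2(FPKM + 1) scale the 95% interval of the difference lay between -1 and 1 for all 10 and between -0.5 and 0.5 for 5. That scale compresses low genes, and with a pseudocount of 0.1 the interval of Irs1 reached 1.32, around a difference of 0.30.

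**Figure D1:**
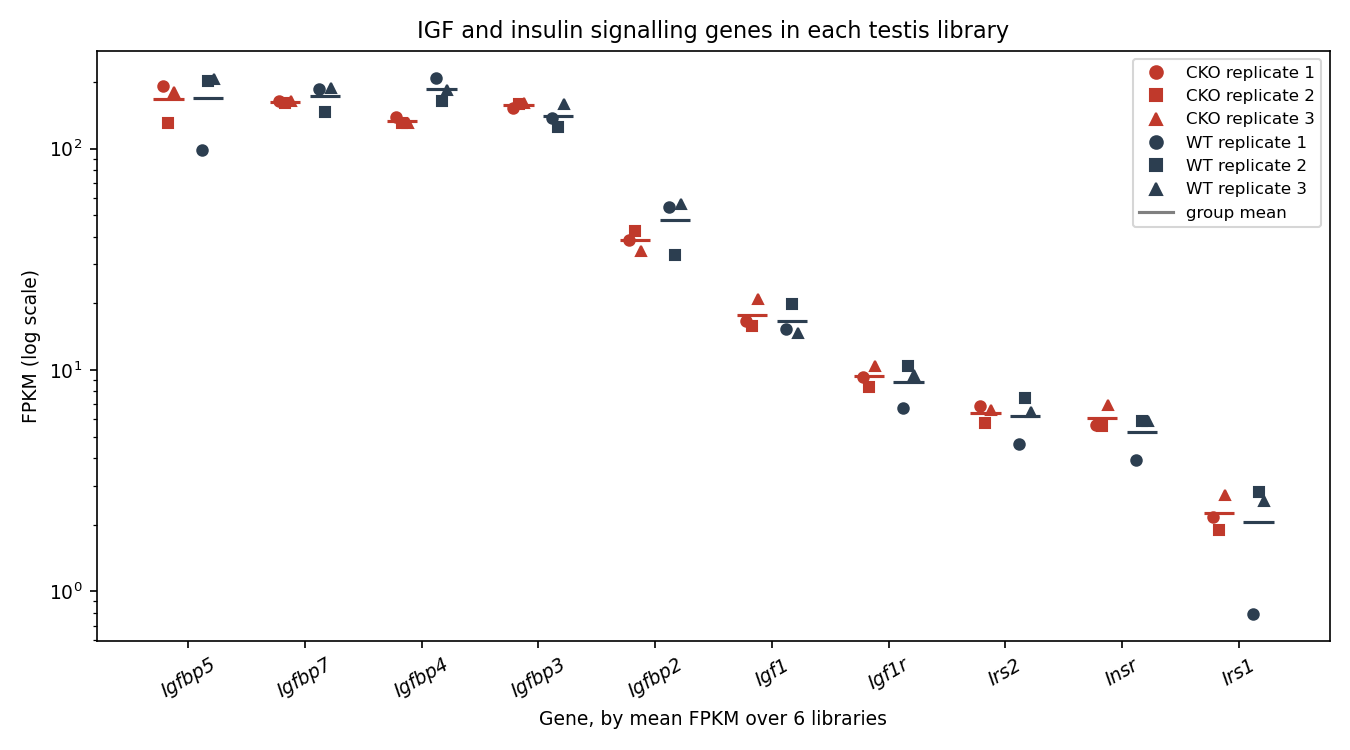
FPKM on a log scale for the 10 genes in each library, CKO in red on the left and WT in dark blue on the right of each pair, with marker shapes for replicates and lines for group means. Igfbp5, Igfbp7, Igfbp4 and Igfbp3 sit at 98.9 FPKM or more in every library, and the WT replicate 1 circle lies lowest for Igfbp5, Igf1r, Irs2, Insr and Irs1.

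The libraries held 16070287 to 17281330 recovered reads, and the 10 genes had between 115 and 20453 reads each per library. Srsf2, the targeted gene, had 74.0, 87.3 and 87.3 FPKM in CKO libraries and 127, 96.7 and 102 FPKM in WT libraries, with no overlap and a log2 difference of -0.38 (limma adjusted p = 0.384). Srsf2 is active in many cell types, so whole-testis RNA is no direct measure of its loss in Sertoli cells. Of 12 Sertoli cell markers, 11 had a negative log2 difference, against 49.2% of all tested genes. Of the 12, 7 were lower at an unadjusted limma p under 0.05, against 7.68% of all tested genes. By limma 0 of the markers passed over all genes, and 0 were at 0 in all libraries. Their summed level was 1101 to 1279 FPKM in CKO and 1541 to 2055 FPKM in WT libraries. All 5 spermatid markers had a mean under 1 FPKM over the 6 libraries, with sums of 0.407 to 1.42 FPKM in CKO and 0.209 to 1.72 FPKM in WT libraries. All 5 tested germ cell markers stood above 0 on the log2 scale (median 0.40), against 50.8% of all tested genes. Of these markers 2 were higher at an unadjusted p under 0.05, against 4.65% of all tested genes. The summed level of the 6 germ cell markers was 187 to 280.1 FPKM in CKO and 149 to 265 FPKM in WT libraries. All 5 red blood cell markers were positive too, with a median of 0.59, and 1 of them was higher at that p, again against 4.65%. Their sums were 4860 to 6438 FPKM in CKO and 2712 to 5657 FPKM in WT libraries. None of these germ cell and red blood cell markers passed over all genes. The shares set beside the marker counts are over tested genes of every length and were not matched to marker length. Of tested genes under 5000 bases 42.2% were above 0, and of those of at least 5000 bases 65.2%. In bulk RNA, fewer cells of a type and less RNA per cell cannot be told apart.

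Igf1 encodes the growth factor itself, made in the testis by somatic cells. Igf1 was at 16.6, 15.7 and 20.8 FPKM in CKO replicates 1 to 3 and at 15.2, 19.8 and 14.7 FPKM in WT replicates 1 to 3. The ranges overlapped, and each group held 1 library near 20 FPKM, CKO replicate 3 and WT replicate 2. The means were 17.7 ± 2.75 FPKM in CKO and 16.6 ± 2.80 FPKM in WT (SD, n = 3 each), a log2 difference of 0.09 with a 95% interval of -0.27 to 0.46 and an SE of 0.16 (limma adjusted p = 0.810). Counting error was smaller than this spread: the 3370 reads of CKO replicate 3 allow 20.2 to 21.6 FPKM and the 2370 reads of WT replicate 3 allow 14.1 to 15.3 FPKM (exact Poisson 95% intervals, for counting error only). The difference was -0.19 once the trends on gene length and GC content were taken out of each library, and -0.02 without CKO replicate 3. Igf1 (ENSMUSG00000020053) lies on chromosome 10 at 87858265 to 87937042 of GRCm38, plus strand, with no exon shared with another annotated gene.

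The receptor genes were expressed at a lower level than the ligand. Igf1r, which encodes the IGF1 receptor, was at 9.28, 8.38 and 10.4 FPKM in CKO and at 6.76, 10.4 and 9.44 FPKM in WT replicates 1 to 3. Insr, which encodes the insulin receptor, was at 5.61, 5.56 and 6.95 FPKM in CKO and at 3.92, 5.86 and 5.88 FPKM in WT replicates 1 to 3. For both genes the lowest library was WT replicate 1 and the other 5 libraries overlapped between the groups. Igf1r averaged 9.34 ± 0.991 FPKM in CKO and 8.86 ± 1.88 FPKM in WT (SD, n = 3 each), a log2 difference of 0.08 (SE 0.16, limma adjusted p = 0.837). Insr averaged 6.04 ± 0.790 FPKM in CKO and 5.22 ± 1.12 FPKM in WT (SD, n = 3 each), with a log2 difference of 0.19 (SE 0.16, limma adjusted p = 0.632). Without WT replicate 1 these differences were -0.08 for Igf1r and 0.03 for Insr, and with length and GC trends removed 0.01 for Igf1r and 0.07 for Insr. Within a library Igf1r exceeded Insr by a ratio of 1.49 to 1.65 in CKO and 1.61 to 1.77 in WT, so the order of the receptors held in all 6 libraries. Igf1r (ENSMUSG00000005533) lies on chromosome 7 at 67952827 to 68233668, plus strand, and Insr (ENSMUSG00000005534) on chromosome 8 at 3122061 to 3279617, minus strand.

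Irs1 and Irs2 encode the insulin receptor substrate adaptors. Irs2 was at 6.87, 5.77 and 6.56 FPKM in CKO and at 4.62, 7.46 and 6.42 FPKM in WT replicates 1 to 3. Irs1 was at 2.16, 1.89 and 2.73 FPKM in CKO and at 0.791, 2.80 and 2.56 FPKM in WT replicates 1 to 3. Here too WT replicate 1 was the lowest library for both, and for Irs1 it stood apart from the other 5. Its 115 Irs1 reads allow 0.653 to 0.949 FPKM by counting error, below the 1.68 FPKM that is the lower bound of CKO replicate 2, the next library up. Irs2 averaged 6.40 ± 0.569 FPKM in CKO and 6.17 ± 1.44 FPKM in WT (SD, n = 3 each), a log2 difference of 0.06 (SE 0.16, limma adjusted p = 0.884). Irs1 averaged 2.26 ± 0.433 FPKM in CKO and 2.05 ± 1.10 FPKM in WT (SD, n = 3 each), a log2 difference of 0.16 (SE 0.29, limma adjusted p = 0.818). Without WT replicate 1 the differences were -0.10 for Irs2 and -0.18 for Irs1. The ratio of Irs2 to Irs1 was 2.40 to 3.18 in CKO libraries, and in WT it was 5.85 in replicate 1, 2.66 in replicate 2 and 2.51 in replicate 3. Irs1 (ENSMUSG00000055980) lies on chromosome 1 at 82233101 to 82291416 and Irs2 (ENSMUSG00000038894) on chromosome 8 at 10984681 to 11008458, both on the minus strand. Each shares exon bases with a gene of the opposite strand, Gm9747 for Irs1 and 9530052E02Rik for Irs2, and how such reads were counted is not stated, so both are uncertain to that extent.

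Binding protein transcripts were the most abundant of the set. Igfbp4 encodes a binding protein that inhibits IGF action and is cleaved by the protease PAPPA, and Igfbp3 encodes the main IGF carrier of blood. The promoter windows of this pair are shown because Igfbp4 stood lowest in CKO testis relative to WT, while Igfbp3 had the highest positive log2 difference of the 5 binding protein genes. Both lie on chromosome 11, and each window runs 5′ to 3′ on the gene's own strand from 250 bases before to 50 bases after the start (RefSeq, GRCm38.p6). Capitals mark the match to the motif TATAAA on either strand.
Igfbp4, chr11:99040994-99041293, plus strand: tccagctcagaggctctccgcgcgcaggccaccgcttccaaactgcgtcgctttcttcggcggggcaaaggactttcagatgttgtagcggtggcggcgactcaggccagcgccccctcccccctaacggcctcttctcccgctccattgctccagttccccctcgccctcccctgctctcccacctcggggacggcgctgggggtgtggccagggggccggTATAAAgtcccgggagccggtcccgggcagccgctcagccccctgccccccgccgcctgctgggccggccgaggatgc
Igfbp3, chr11:7213874-7214173, minus strand: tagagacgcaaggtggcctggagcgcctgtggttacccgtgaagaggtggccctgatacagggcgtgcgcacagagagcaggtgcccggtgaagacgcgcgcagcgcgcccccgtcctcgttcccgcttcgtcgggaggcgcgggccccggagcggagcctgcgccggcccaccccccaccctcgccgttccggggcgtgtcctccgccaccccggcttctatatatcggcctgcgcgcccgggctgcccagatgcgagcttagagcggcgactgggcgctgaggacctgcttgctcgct
The TATAAA of Igfbp4 began 28 bases before the start, and the Igfbp3 window held no exact TATAAA. Upstream of its start the Igfbp3 window did hold the letters tatatat, which the search for TATAAA did not cover. The marks therefore do not show that the windows differ in such sequence. Of 32851 mouse promoter windows of that length, 13.6% held TATAAA on either strand. A motif spelled GGGCGG, the GC box, was in neither window and in 35.7% of all windows. The matches describe letters only and do not show that a factor binds there. The windows had a similar base make-up, with 71.3% GC and 27 CpG dinucleotides in Igfbp4 and 71.7% GC and 37 CpG dinucleotides in Igfbp3.

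Igfbp4 was at 139, 129.9 and 131 FPKM in CKO and at 209, 163 and 184 FPKM in WT replicates 1 to 3. Every CKO library lay below every WT library, and the CKO libraries lay close together. The means were 133 ± 4.87 FPKM in CKO and 185 ± 23.0 FPKM in WT (SD, n = 3 each), so that CKO stood at 71.8% of WT. On the log2 scale CKO minus WT was -0.47, with an SE of 0.14 and a 95% interval of -0.78 to -0.15 (limma adjusted p = 0.372). An exact permutation test of its FPKM, two-sided, gave p = 0.1, and no split of 3 and 3 libraries can give less. The sign was negative under all 19 other settings, from -0.56 without WT replicate 2 to -0.34 with length and GC trends removed, and the adjusted p under them ran from 0.196 to 0.840. The summed level of the 12 Sertoli cell markers was lower in every CKO library than in every WT library. Amh had the highest level of the 12 and weighs most in that sum. Of the 12, 7 did not overlap between the groups, all with CKO lower, a pattern seen in 9.92% of all tested genes. That share was not matched for gene length. Among the 7 was Amh, at 383 ± 64.1 FPKM in CKO and 768 ± 144 FPKM in WT (SD, n = 3 each). Kitl had a difference of 0.23 and Wt1 one of -0.07, both with overlap, and Sox9, Fshr and Clu overlapped too. Other marker lists also held genes without overlap and with CKO lower. They were 2 of 6 for endothelium, 2 of 7 for macrophages, 1 of 6 for interstitial stroma and 1 of 5 tested for peritubular myoid cells. The Leydig, germ and red blood cell lists held 0 such genes. Each of those 3 lists held 1 gene without overlap and with CKO higher, against 8.69% of all tested genes. The part of Sertoli cells or of any other cell type in the Igfbp4 difference was not tested. The gene (ENSMUSG00000017493) lies at 99041244 to 99054392 of chromosome 11, plus strand, and shares no exon base with another annotated gene.

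**Figure D2:**
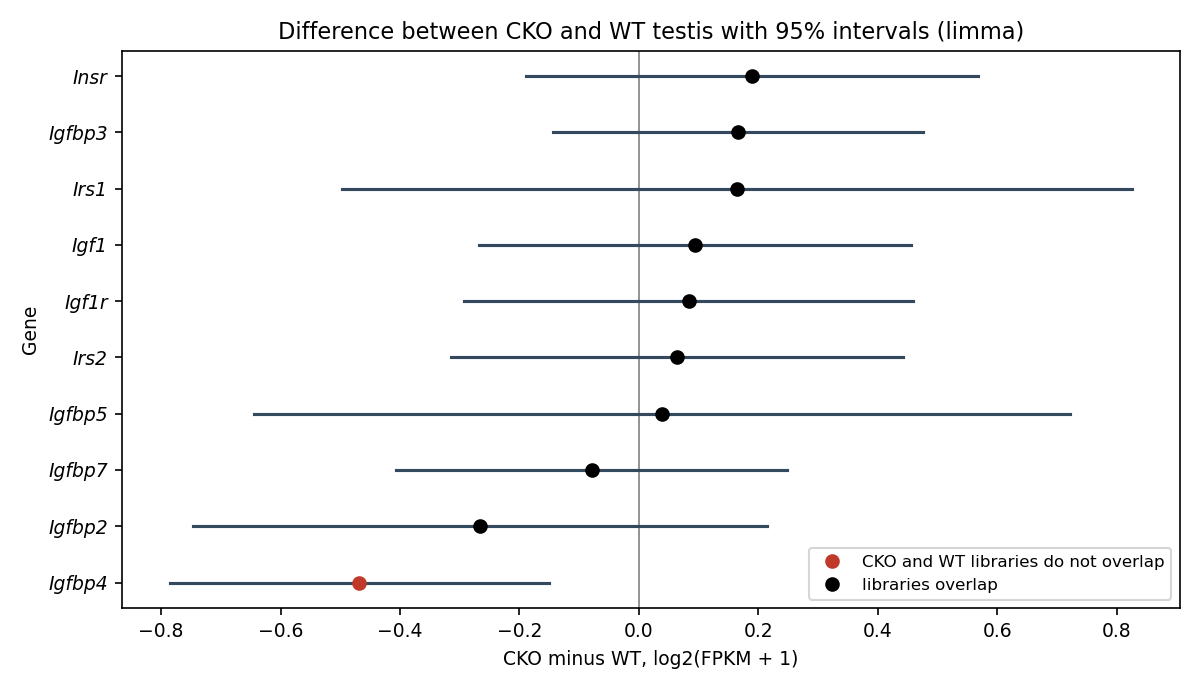
CKO minus WT difference on the log2(FPKM + 1) scale for the 10 genes, with points for the estimate and lines for the 95% interval from limma. Igfbp4, in red, is at -0.47 with an interval of -0.78 to -0.15, and the other 9 intervals include 0.

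Igfbp3 was at 153, 159 and 160.0 FPKM in CKO and at 138, 126 and 159 FPKM in WT replicates 1 to 3. CKO replicates 2 and 3 and WT replicate 3 were nearly level, so the groups overlapped. On the log2 scale CKO minus WT was 0.17, with a 95% interval of -0.14 to 0.48 and an SE of 0.13 (limma adjusted p = 0.612), and the sign was positive under all 19 other settings. Leaving out WT replicate 2 gave 0.09, leaving out WT replicate 3 gave 0.26, and it was 0.28 with quantile normalization. With length and GC trends removed it was 0.25 (SE 0.11, limma adjusted p = 0.586). Igfbp3 (ENSMUSG00000020427, 7206086 to 7213923, minus strand) lies 3539 bases from Igfbp1, a binding protein gene that had a mean of 0.0656 FPKM over the 6 libraries. The 2 neighbours on chromosome 11 thus stood at far different levels.

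Igfbp5 and Igfbp2 are the other pair of adjacent binding protein genes. They face each other on chromosome 1 with 5457 bases and no protein-coding gene between their ends, Igfbp2 (ENSMUSG00000039323) at 72824503 to 72852474 on the plus strand and Igfbp5 (ENSMUSG00000026185) at 72857932 to 72874884 on the minus strand. Igfbp5, whose product also binds extracellular matrix, was at 191, 131 and 179 FPKM in CKO and at 98.9, 203 and 205 FPKM in WT replicates 1 to 3. Igfbp2 was at 38.7, 42.6 and 34.5 FPKM in CKO and at 54.2, 32.9 and 56.1 FPKM in WT replicates 1 to 3. WT replicate 1 was the lowest of the 6 libraries for Igfbp5 and the second highest for Igfbp2, and both genes overlapped between the groups. Igfbp5 averaged 167 ± 31.9 FPKM in CKO and 169 ± 60.8 FPKM in WT (SD, n = 3 each), with a log2 difference of 0.04 (SE 0.30, limma adjusted p = 0.964) that was -0.31 without WT replicate 1. Its mean FPKM and its mean log2 value thus differed in sign. Igfbp2 averaged 38.6 ± 4.04 FPKM in CKO and 47.7 ± 12.9 FPKM in WT (SD, n = 3 each), with a log2 difference of -0.27 (SE 0.21, limma adjusted p = 0.600). That difference was -0.51 without WT replicate 2 (limma adjusted p = 0.215) and 0.04 with length and GC trends removed. The ratio of Igfbp2 to Igfbp5 was 0.192 to 0.326 in CKO and 0.162 to 0.548 in WT libraries.

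Igfbp7 encodes a secreted relative of the family with low affinity for IGFs. Igfbp7 was at 163, 161 and 164 FPKM in CKO and at 186, 146 and 187 FPKM in WT replicates 1 to 3. The CKO libraries differed by less than 4 FPKM and lay inside the WT range. The means were 163 ± 1.77 FPKM in CKO and 173 ± 23.2 FPKM in WT (SD, n = 3 each), with a log2 difference of -0.08 with a 95% interval of -0.41 to 0.25 and an SE of 0.14 (limma adjusted p = 0.822). The sign turned to 0.05 with quantile normalization, 0.01 with libraries rescaled on the genes other than ribosomal, mitochondrial and haemoglobin ones, and 0.19 with length and GC trends removed. Igfbp7 (ENSMUSG00000036256, chromosome 5 at 77349240 to 77408041, minus strand) shares exon bases with Polr2b on the opposite strand and is uncertain to that extent.

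By mean FPKM over the 6 libraries the order was Igfbp5, Igfbp7, Igfbp4, Igfbp3, Igfbp2, Igf1, Igf1r, Irs2, Insr and Irs1. The first 4 overlapped in range, at means of 168, 168, 159 and 149 FPKM, and their order changed between libraries. They ranked 201 to 231 among the 14238 tested genes. Igfbp2, at 43.2 FPKM, lay below all 4 and above Igf1, at 17.1 FPKM, without overlap. Igf1 exceeded Igf1r in 6 of 6 libraries without overlap in range, Irs2 exceeded Insr in 5 of 6 with overlap, and Irs1 was lowest throughout at a mean of 2.15 FPKM.

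The summed level of the 5 binding protein genes was 623 to 684 FPKM in CKO and 671 to 792 FPKM in WT libraries. Set against Igf1 in the same library, that sum was 41.3, 39.6 and 32.1 times the Igf1 level in CKO and 45.0, 33.9 and 53.9 times in WT replicates 1 to 3, with overlap. Within the sum, Igfbp4 took 20.3, 20.8 and 19.6% in CKO and 30.5, 24.3 and 23.2% in WT replicates 1 to 3. Igfbp3 took 22.3, 25.6 and 23.9% in CKO and 20.1, 18.7 and 20.1% in WT replicates 1 to 3. The shares of these 2 genes did not overlap between the groups and those of the other 3 did, and since shares sum to a whole they are not independent. The ratio of Igfbp4 to Igfbp3 was 0.907, 0.815 and 0.818 in CKO and 1.52, 1.30 and 1.15 in WT libraries, so Igfbp4 stood below Igfbp3 in all CKO libraries and above it in all WT libraries. It was 1 of 8 ratios computed, of which 3 did not overlap: this one, Igf2r to Igf1r and Pappa to Igfbp4. Igfbp4 itself did not overlap between the groups, so the ratios that contain it are no separate result. No share over other gene pairs was computed to set beside the 3 of 8. The 8 were chosen with these data known and are given without a test.

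**Figure D3:**
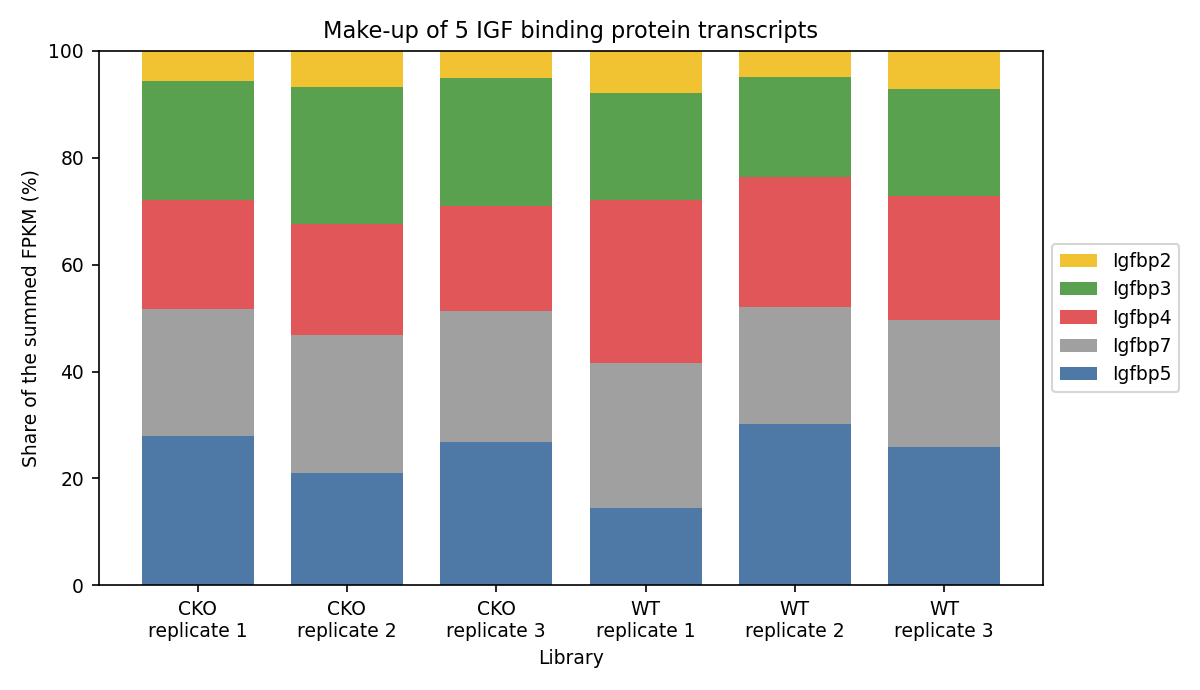
Share of each of 5 binding protein genes in their summed FPKM, in percent, in CKO libraries on the left and WT libraries on the right. The red band, Igfbp4, is 19.6 to 20.8% in CKO and 23.2 to 30.5% in WT, and the blue band, Igfbp5, is smallest in WT replicate 1 at 14.4%.

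WT replicate 1 differed from the other WT libraries in a way that followed gene length, and WT replicate 2 did so in the opposite direction. Over all tested genes of at least 9000 bases (1608 genes), it lay below the mean of WT replicates 2 and 3 for 84.8%, with a median of -0.28 on the log2 scale. Over those under 2000 bases (3244 genes) it lay below for 28.1%, with a median of 0.27. Set likewise against the mean of the other WT libraries, WT replicate 2 had medians of 0.22 for the long and -0.24 for the short genes. For WT replicate 3 they were 0.07 and -0.01. Each such value depends on all the WT libraries, so they are not independent. The values below are those of WT replicate 1. The members at or over 5000 bases had values of -0.15 (Igf1), -0.48 (Insr), -0.49 (Igf1r), -0.49 (Irs2), -1.04 (Irs1) and -1.04 (Igfbp5), and the shorter members -0.04 (Igfbp3), 0.17 (Igfbp7), 0.27 (Igfbp4) and 0.33 (Igfbp2). The negative values of Irs1 and Igfbp5 thus lay well beyond the median of their length class. The 18S ribosomal RNA gene took 0.727 to 0.835% of reads in CKO libraries and 2.09, 1.58 and 1.65% in WT replicates 1 to 3. Mitochondrial genes took 2.39, 2.91 and 2.97% in CKO and 1.66, 1.98 and 1.85% in WT replicates 1 to 3. Both shares differed between CKO and WT without overlap, and so did not concern WT replicate 1 alone. The part of RNA quality or cell make-up in these values, or in the CKO minus WT differences, was not tested. Without WT replicate 1, differences of Igf1r, Irs1, Irs2 and Igfbp5 turned negative, and Igfbp4 stood at -0.38 (limma adjusted p = 0.363).

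**Figure D4:**
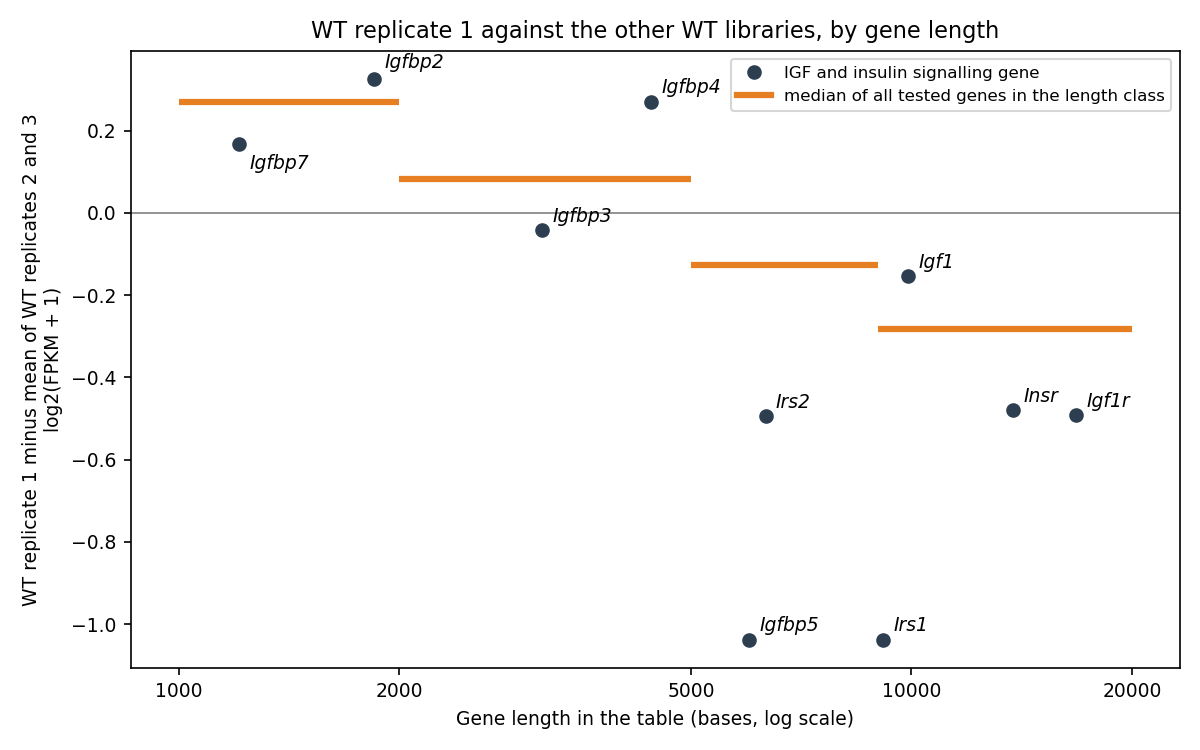
Difference between WT replicate 1 and the mean of WT replicates 2 and 3 on the log2(FPKM + 1) scale, against gene length in bases on a log axis, for the 10 genes (points) and as the median of all tested genes in 4 length classes (orange lines; the first class also holds genes under 1000 bases). The medians go from 0.27 for the shortest class to -0.28 for the longest, and Irs1 and Igfbp5 lie at -1.04.

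A wider list of 76 IGF and insulin pathway genes, beside the 10, gave 69 tested genes. None passed over all genes in either direction (limma, lowest adjusted p = 0.361), and 0 passed by limma voom. At an unadjusted p under 0.05, 3 were higher and 6 lower in CKO, 13.0% of the 69 against 12.3% of all tested genes. The groups did not overlap for 17 of the 69, 24.6% against 18.6% of all tested genes. The median log2 difference was 0.02, with 37 genes above and 32 below 0. Here too the sign followed gene length, with 36 of the 50 genes of at least 5000 bases above 0 and 1 of the 19 shorter genes. The 3 higher and 6 lower became 8 higher and 7 lower without WT replicate 2, 2 and 9 without WT replicate 1, 2 and 3 without WT replicate 3, and 1 and 3 without CKO replicate 2 or without CKO replicate 3.

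Of the other ligands, Igf2 was at 5.72, 4.84 and 6.35 FPKM in CKO and at 2.49, 8.69 and 8.70 FPKM in WT replicates 1 to 3, again lowest in WT replicate 1. It shares exon bases with Gm49394 on its own strand and Igf2os on the other and is uncertain to that extent. The insulin genes were near absent, with Ins1 listed at 0 in all 6 libraries and Ins2 at a mean of 0.155 FPKM. Igf2r, which clears IGF2, was at 22.1 ± 2.74 FPKM in CKO and 23.8 ± 4.95 FPKM in WT (SD, n = 3 each), above Igf1r by a ratio of 2.26 to 2.51 in CKO and 2.65 to 2.73 in WT libraries. Igfbp6, which prefers IGF2, was at 17.6 ± 5.95 FPKM in CKO and 23.7 ± 4.81 FPKM in WT (SD, n = 3 each, limma adjusted p = 0.474), a log2 difference of -0.44 that was -0.25 without CKO replicate 2, -0.68 without CKO replicate 1 and -0.13 with length and GC trends removed. Igfbp1 and Igfals, which encode binding partners made chiefly by liver, had means of 0.0656 and 0.0828 FPKM.

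Among proteases of binding proteins and their inhibitors, 0 of 4 tested genes passed. Pappa, the IGFBP4 protease, was at 3.67, 3.45 and 4.15 FPKM in CKO and at 1.70, 3.81 and 2.88 FPKM in WT replicates 1 to 3, with a log2 difference of 0.36 (SE 0.21, limma adjusted p = 0.499). Leaving out WT replicate 1 gave 0.13 for Pappa, leaving out WT replicate 2 gave 0.55, and it was 0.23 with length and GC trends removed. The CKO libraries lay inside the WT range except CKO replicate 3, which was highest of the 6. Stc1 and Stc2, which encode stanniocalcins that inhibit PAPPA, had log2 differences of 0.25 and -0.09 (limma adjusted p = 0.491 and 0.740), and that of Stc1 was 0.14 with WT replicate 1 left out, 0.16 with CKO replicate 3 left out and 0.11 with length and GC trends removed. The RNA-binding genes Igf2bp1, Igf2bp2 and Igf2bp3 had differences of -0.06, 0.14 and 0.09, and 0 of 3 passed. Without WT replicate 1 these were -0.18, 0.02 and -0.23.

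Downstream of the receptors, 0 genes of the adaptor, kinase, FoxO, mTOR and MAPK lists passed over all genes. Of 13 tested adaptors and modulators, Socs3, a feedback inhibitor, was at 7.38 ± 0.965 FPKM in CKO and 10.1 ± 0.773 FPKM in WT (SD, n = 3 each), without overlap (limma adjusted p = 0.372). Grb14, which binds and inhibits the insulin receptor, had a difference of 0.30 without overlap, which was 0.20 without WT replicate 2, and Sh2b1 had one of -0.35 with overlap. With length and GC trends removed the differences were -0.19 for Socs3, 0.07 for Grb14 and -0.12 for Sh2b1. Of 16 genes of the phosphoinositide 3-kinase and AKT branch 12 had a positive difference, against 50.8% of all tested genes. Each of the 12 had a length of at least 5000 bases, where 65.2% of tested genes were above 0. Pik3r3, a regulatory subunit gene, was at 10.2, 12.1 and 9.71 FPKM in CKO and at 6.64, 8.04 and 6.91 FPKM in WT replicates 1 to 3. Its groups did not overlap, and its log2 difference of 0.51 (SE 0.13, limma adjusted p = 0.361) had the lowest p of the 69. Pik3r3 shares exon bases with Gm49337 on its own strand and is uncertain to that extent. Pik3r2, the paralog of Pik3r3, had a log2 difference of -0.30, which was -0.05 with length and GC trends removed. For Pik3r2 the groups did not overlap either, and it did not pass over all genes (limma adjusted p = 0.381).

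Of 4 FoxO factors, Foxo6 was at 16.7 ± 4.34 FPKM in CKO and 24.9 ± 1.26 FPKM in WT (SD, n = 3 each), without overlap (limma adjusted p = 0.372), and Foxo1, a factor that AKT keeps out of the nucleus, had a difference of 0.25 and Foxo4 one of -0.23. Of 15 mTOR branch genes, Eif4ebp1, a translation repressor that mTOR phosphorylates, was at 28.7, 22.2 and 20.1 FPKM in CKO and at 43.9, 29.6 and 36.2 FPKM in WT replicates 1 to 3. The groups stood less than 1 FPKM apart at their nearest libraries, and CKO minus WT was -0.60 on the log2 scale (SE 0.18, limma adjusted p = 0.372). Akt1s1, an mTOR inhibitor that AKT phosphorylates, had a difference of -0.34 with overlap and Rps6kb1, the S6 kinase gene, one of 0.24 without overlap. Of 10 RAS and MAPK genes, Map2k2 had a difference of -0.33 and Hras of -0.24, neither past the threshold over all genes. With length and GC trends removed the differences were -0.20 for Foxo6 (where it had been -0.58), -0.08 for Foxo4, -0.08 for Akt1s1, -0.01 for Rps6kb1, -0.11 for Map2k2 and -0.10 for Hras. Leaving out 1 library moved Foxo4 to -0.13 (CKO replicate 2), -0.38 (WT replicate 1) and -0.10 (WT replicate 3), Hras to -0.13 (WT replicate 1) and Rps6kb1 to 0.14 (CKO replicate 3).

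The genes most alike to Igfbp4 over the 6 libraries, by Pearson correlation of log2(FPKM + 1) among 8775 genes with a mean of at least 5 FPKM, were Stk16, Bad and Gpaa1, each at 0.996. Of the genes compared, 248 reached a correlation of at least 0.95 with Igfbp4, and 3 reached it with Igf1. Bad, which encodes a pro-apoptotic protein that AKT phosphorylates, was at 7.40, 6.28 and 6.42 FPKM in CKO and at 12.8, 8.83 and 10.9 FPKM in WT replicates 1 to 3, the same order of libraries as Igfbp4. The genes most alike to Igf1 were Ankrd46, Fkbp9 and Nup50, at 0.964, 0.963 and 0.956. These likenesses describe 6 libraries that share depth, length trends and genotype, and no test was made of them.

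**Figure D5:**
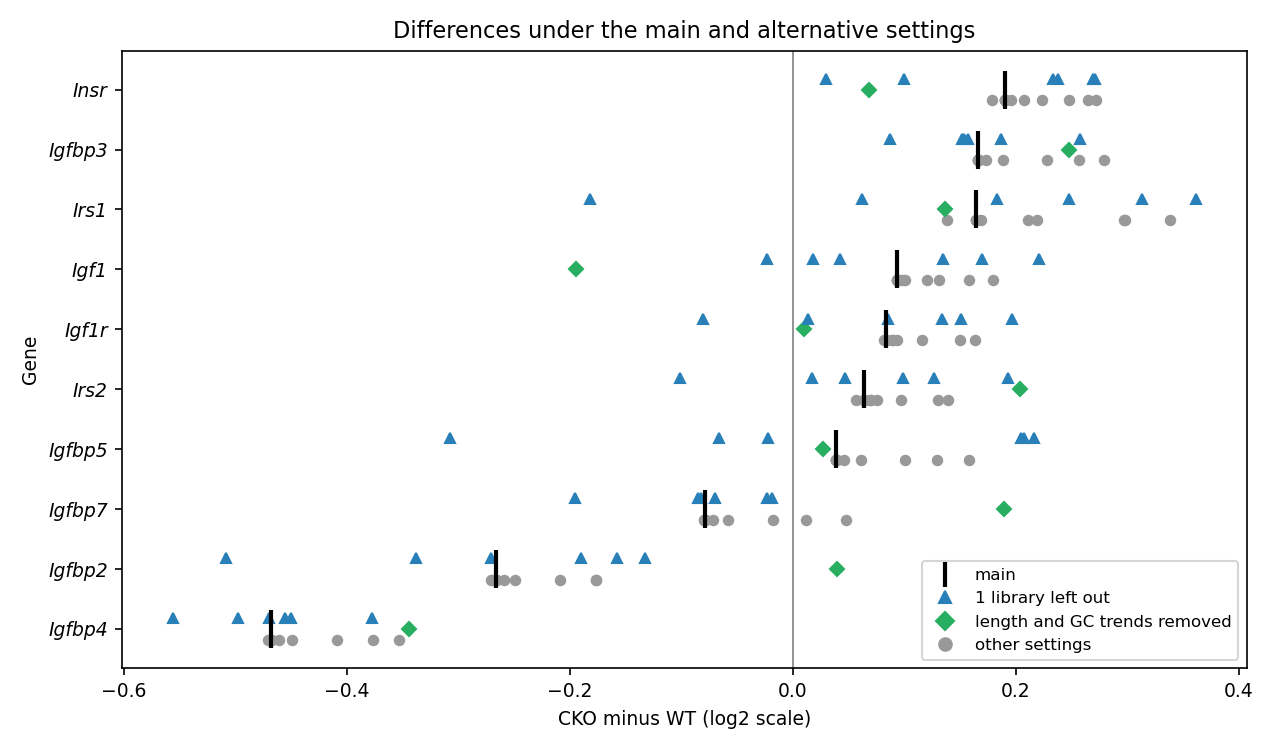
CKO minus WT difference on the log2 scale for the 10 genes under the main setting (black bar), with each library left out (blue triangles), with length and GC trends removed (green diamonds) and under the other settings (grey circles). Igfbp4 lies between -0.56 and -0.34 throughout, Igfbp3 and Insr stay above 0, and the other 7 genes have at least 1 value on the far side of 0.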

How the data were processed

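RNA of whole testis was measured in 3 CKO and 3 WT libraries. Per the labels' protocols, RNA was taken with Trizol and a SMARTER kit gave the libraries. The authors deposited 1 table of FPKM values, and the submitters' processing notes name the builds GRCm38 and mm10. Their aligner, counter, annotation and strand setting are not named in those notes or labels. Positions printed are those of GENCODE M21 on GRCm38, matched by gene identifier, because 1499 of 52081 shared identifiers had the same start in the table.

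In each library 100% of the products of FPKM and gene length were whole multiples of a common step (tolerance 0.01), which gave recovered reads. Differences are CKO minus WT from limma 3.58.1 (R 4.3.3) with trended variance on log2(FPKM + 1), for genes with a mean of at least 1 FPKM, fitted without a replicate block and adjusted by Benjamini-Hochberg over all 14238 genes at 0.05. This scale understates changes of low genes. Members and lists were chosen with earlier results of these data known. Pathway genes named are the 3 with the lowest p in each list, of which 2 are not reported here. On simulated data of this comparison over 55850 genes, the fit called 92.0% of genes changed 2-fold and 15.4 unchanged genes per draw. The simulation held no trend shared by many genes and gave every gene the same spread (dispersion 0.0128). In the real libraries Amh and Cst9 differed by -1.00 and -1.01 on the log2 scale. Neither passed (limma adjusted p = 0.360 and 0.306). The simulated rates therefore do not tell how often a 2-fold change would be called in these libraries. Replicates of a group differed by more than sampling noise. Alternatives comprised pseudocounts, filters, scalings, limma settings, voom, trends on length and GC and leaving out each library. Splicing is not analysed here. Tables and plots were made in Python 3.11.15.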

Additional observations from a re-analysis of the deposited data

How the results depend on the processing

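Under 19 alternatives to the main setting, 0 of the 10 genes and 0 of the wider list passed over all genes, and Igfbp4, Igfbp3 and Insr kept their sign. With so few calls over all genes, 1 higher and 1 lower, either count became 0 when any library was left out. The higher count was also 0 with pseudocounts of 0.1 and 0.5, no filter, a mean of at least 5 FPKM, the TPM scale, median-of-ratios scaling or the replicate block, and 2 with length and GC trends removed. The lower count was 0 with no filter, the replicate block or voom. The number of the 10 genes at an unadjusted p under 0.05 was 2 with length and GC trends removed, Igfbp4 and Igfbp3, and 1 to 2 with a library left out. In the wider list the higher count at that p was 5 with rescaling or voom, 1 with the replicate block or with length and GC trends removed, and 1 to 8 with a library left out. The lower count was 3 on the TPM scale, with quantile normalization or with rescaling, 1 with length and GC trends removed, and 3 to 9 with a library left out.

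Signs turned as follows, in genes that passed under no setting. With length and GC trends removed, the values were Igf1 -0.19, Igfbp2 0.040, Igfbp7 0.19, Igf2 0.066, Igf2bp3 -0.030, Igfbpl1 0.029 and Rps6kb1 -0.013. With quantile normalization Igfbp7 was 0.047. With rescaling Igfbp7 was 0.012, Igf2 0.0056 and Igf2bp1 0.0080, and on the TPM scale Igf2 was 0.0095. With a library left out the ranges were -0.023 to 0.22 for Igf1, -0.081 to 0.20 for Igf1r, -0.18 to 0.36 for Irs1, -0.10 to 0.19 for Irs2, -0.31 to 0.22 for Igfbp5, -0.55 to 0.18 for Igf2, -0.18 to 0.0081 for Igf2bp1, -0.23 to 0.27 for Igf2bp3, -0.27 to 0.019 for Igf2r and -0.31 to 0.092 for Igfbpl1. The cause was not tested.

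The labels do not say that the replicate numbers pair the libraries. Deviations from the group means correlated at 0.0948, -0.331 and 0.393 for numbers 1, 2 and 3, and not every library correlated best with its own number. With 3 libraries per group such values can neither show nor exclude a pairing. With the replicate block Igfbp4 was at -0.47 (limma adjusted p = 0.394). Irs1 had the fewest reads of the members. Its SE was 0.29 in the main setting and 0.16 without WT replicate 1, while Igfbp5, with far more reads, had an SE of 0.30.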
